A study of Drosophila melanogaster with 2 samples.

Results

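The aminoacyl-tRNA synthetase genes of Drosophila melanogaster were examined for binding of CG12299. They were taken as the protein-coding Ensembl genes whose symbol contains a 3-letter amino acid code followed directly by RS. This rule found 35 of 13986 protein-coding genes. Of these, 20 had a symbol without the suffix -m, and 15 had a symbol ending in -m, which marks the enzyme of mitochondria. The binding data came from ChIP-seq of whole embryos aged 0 to 24 h, in 1 group of 2 biological replicates. All animals carried a transgene for CG12299 with green fluorescent protein (GFP) fused to its C terminus, in a stable line, and chromatin was precipitated through GFP. The sex of the embryos was not collected, and the promoter driving the transgene is not given in the sources used here. Each library mixed the cells of a whole embryo over the whole span of embryogenesis, so a peak cannot be placed in a tissue or stage. There was no second condition and no untagged group, so the values below are descriptions, set beside the same counts over all protein-coding genes, with no test over genes.

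Aminoacyl-tRNA synthetases join each amino acid to its own tRNA, and so fix the reading of the genetic code. The enzymes fall into class I and class II, whose catalytic domains have unrelated folds. In animals several cytosolic synthetases are held together in a multi-synthetase complex with scaffold proteins called AIMPs. Mitochondria translate their own genome and need synthetases too, all of them encoded in the nucleus. For some amino acids a single nuclear gene makes both forms, as is known for glycine and lysine in human. CG12299 encodes a zinc finger protein.

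The 4 lists of peaks deposited were a list for each replicate, a list called on both replicates together (the pooled list) and a thresholded list of 3672 peaks. A peak's summit is the base at which the authors placed its maximum, and the signalValue is the authors' own score for a peak, on a scale specific to each list. The thresholded peaks had signalValues from 107 to 2056.6, with a median of 154.8, and were the 3672 strongest of the pooled list. A rank of 1 denotes the peak of highest signalValue in its list. A gene was counted as having a summit when a summit lay within 1000 bp of one of its transcription start sites (TSSs), so that a single peak can count for more than 1 gene. The peak lists hold no read counts, so the depth behind each peak is unknown.

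The DNA at the summits is shown for 5 of the 11 thresholded member peaks, to set side by side what lies under strong peaks of either class. They are 4 peaks at genes without -m and the peak of LeuRS-m, taken among those whose surroundings hold no untranslated exon. ArgRS-m and ProRS-m, whose pooled peaks fell just short of the thresholded list, are added for comparison and were chosen after their values were seen. Each line gives the summit base with 50 bases to either side, 5′ to 3′ on the strand of the gene, in the dm6 assembly. Capitals mark matches on either strand to any of the words searched, namely the DNA replication-related element or DRE (TATCGATA), its shorter part CGATA, the core of Motif 1 (GGTCACAC), an E-box (CACGTG), the TATA-like word TATAAA, the GAGA-like word GAGAG, the AT-rich word TTTAAAA and the pyrimidine word CTTTTC. Matches may overlap, since CGATA lies within the DRE. IleRS stood at chr3L:22288454-22288554 (plus strand), ThrRS at chr2L:12103524-12103624 (plus), GluProRS at chr3R:23958437-23958537 (minus) and AsnRS at chr2L:19131955-19132055 (minus). LeuRS-m stood at chr3L:4824961-4825061 (plus), ArgRS-m at chr3R:7886866-7886966 (plus) and ProRS-m at chr3L:2651944-2652044 (minus).
IleRS: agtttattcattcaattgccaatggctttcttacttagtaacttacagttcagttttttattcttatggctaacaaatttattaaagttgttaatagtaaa
ThrRS: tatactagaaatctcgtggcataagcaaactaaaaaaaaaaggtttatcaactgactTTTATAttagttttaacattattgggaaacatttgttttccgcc
GluProRS: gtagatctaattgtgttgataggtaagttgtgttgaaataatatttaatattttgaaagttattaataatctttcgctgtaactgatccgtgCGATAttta
AsnRS: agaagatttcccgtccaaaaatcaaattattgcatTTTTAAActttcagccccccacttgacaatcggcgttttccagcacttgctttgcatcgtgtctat
LeuRS-m: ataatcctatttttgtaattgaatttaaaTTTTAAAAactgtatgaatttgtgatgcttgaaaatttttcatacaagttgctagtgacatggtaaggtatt
ArgRS-m: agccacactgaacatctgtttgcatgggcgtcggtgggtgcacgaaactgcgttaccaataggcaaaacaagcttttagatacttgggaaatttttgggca
ProRS-m: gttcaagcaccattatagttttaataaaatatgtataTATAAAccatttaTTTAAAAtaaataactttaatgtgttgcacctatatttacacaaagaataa

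All of these windows but that of LeuRS-m lay between genes, and the LeuRS-m window lay in an intron of Dhc64C. IleRS and ArgRS-m held none of the 8 words. ThrRS held TATAAA, GluProRS held CGATA, and AsnRS and LeuRS-m each held TTTAAAA. ProRS-m held TATAAA as well as the AT-rich word TTTAAAA. GC content was 24.8% at IleRS, 28.7% at ThrRS, 26.7% at GluProRS and 40.6% at AsnRS. It was 23.8% at LeuRS-m, 46.5% at ArgRS-m and 19.8% at ProRS-m. The sequences shown thus shared no single word, and their base composition spread widely. The highest and lowest GC content were those of ArgRS-m and ProRS-m, the peaks added for comparison. Over all 11 thresholded member summits CGATA was present at 5 (45.5%), against 19.9% of the thresholded summits of all protein-coding genes.

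Most of the thresholded peaks at synthetase genes stood at genes without -m. A thresholded summit lay within range of 10 of the 20 genes without -m (50%) and of 1 of the 15 genes with -m (6.67%), against 21.7% of all protein-coding genes (3036 of 13986). Over both classes together the count was 11 of 35 (31.4%). The 10 genes without -m were SerRS, IleRS, ThrRS, GluProRS, MetRS, alpha-PheRS, AsnRS, beta-PheRS, GlnRS and AspRS, and the gene with -m was LeuRS-m. Each replicate was then read by itself, using its 3672 strongest peaks. In replicate 1 the counts were 8 of 20 without -m (40%) and 1 of 15 with -m, against 22.0% of all protein-coding genes. In replicate 2 they were 7 of 20 without -m (35%) and 1 of 15 with -m, against 21.2% of all protein-coding genes. The share of genes without -m was thus above the background in both replicates, and that of genes with -m was below it.

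**Figure D1:**
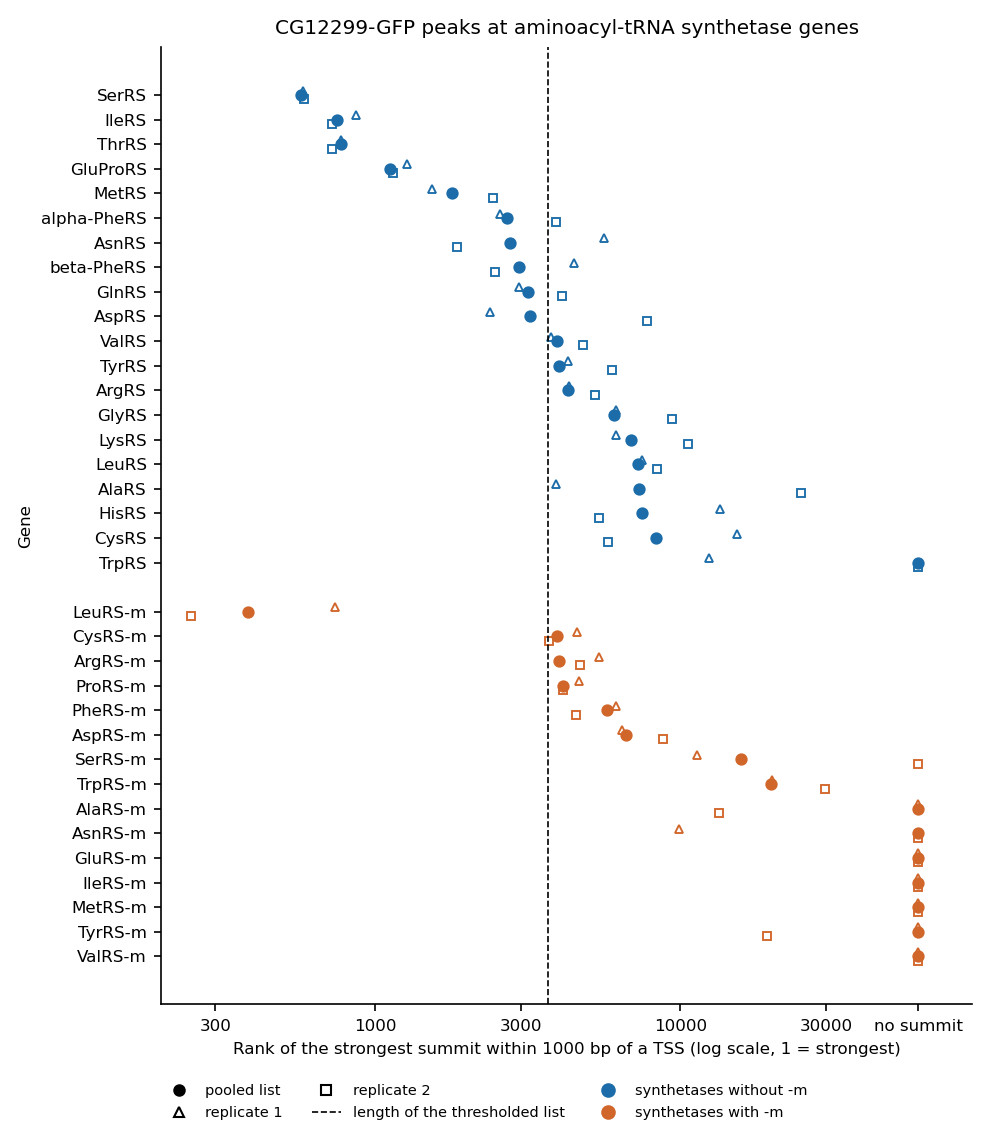
Rank of the strongest summit within 1000 bp of a TSS for each of the 35 genes, on a log axis, in the pooled list (filled circles), replicate 1 (triangles) and replicate 2 (squares), with genes without -m above those with -m. The 10 genes without -m and LeuRS-m lie left of the dashed line at rank 3672, and pooled summits were lacking for TrpRS and 7 genes with -m.

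The gap between the classes stayed when weaker peaks were counted. Among the 7344 strongest pooled peaks, 17 of 20 genes without -m had a summit in range (85%) and 6 of 15 with -m (40%), against 35.2% of all protein-coding genes. Over the whole pooled list the counts were 19 of 20 without -m (95%) and 8 of 15 with -m (53.3%), against 63.4% of all protein-coding genes. Genes with -m were thus near or somewhat below the background at these wider limits. Among only the 500 strongest pooled peaks the order was reversed. There 0 of 20 genes without -m and 1 of 15 with -m, LeuRS-m, had a summit in range, against 3.61% of all protein-coding genes. TrpRS, which charges tryptophan, was the gene without -m that had no pooled summit in range; its nearest lay 2627 bp away. The 7 genes with -m that had none were AlaRS-m, AsnRS-m, GluRS-m, IleRS-m, MetRS-m, TyrRS-m and ValRS-m. Of these, GluRS-m, IleRS-m, MetRS-m and ValRS-m had no summit in range in either replicate, which held for none of the genes without -m. Taken singly, each replicate lacked a summit at 40% of genes with -m. This was near the 37.2% of all protein-coding genes in replicate 1 and 36.5% in replicate 2. The share of all protein-coding genes lacking one in both was not counted.

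**Figure D2:**
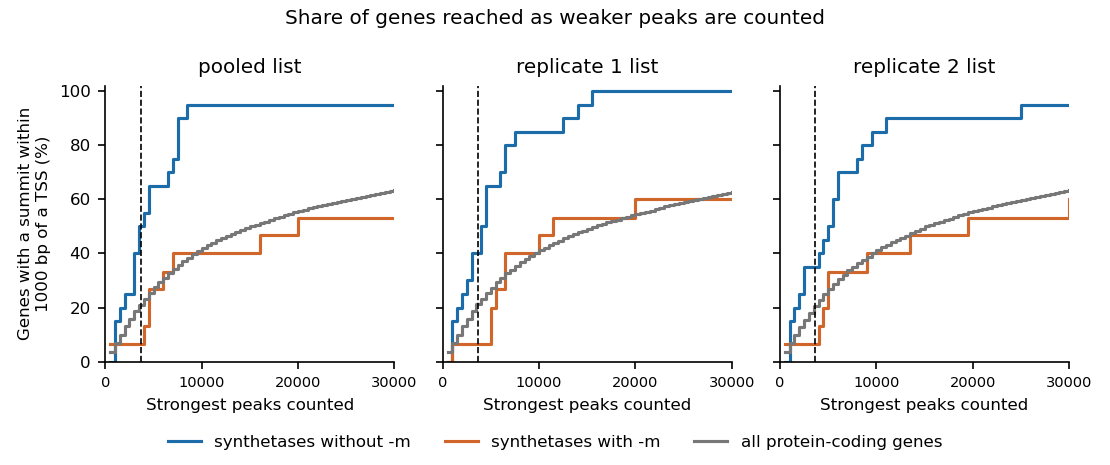
Percentage of genes with a summit within 1000 bp of a TSS as the number of strongest peaks counted grows from 500 to 30000, for the pooled list and each replicate. Genes without -m (blue) end at 95% in the pooled list, those with -m (orange) at 53.3% and all protein-coding genes (grey) at 63.4%, and the dashed line marks 3672 peaks.

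The strongest peaks at genes without -m stood at SerRS, IleRS, ThrRS and GluProRS. SerRS, the seryl-tRNA synthetase (2L, 3035493 to 3037403), had a signalValue of 286.4 in the pooled list, at rank 571. Its peak scored 151.1 in replicate 1 (rank 580) and 137.9 in replicate 2 (rank 584). The summit lay 31 bp downstream of the SerRS start, and 39 bp upstream of the start of its neighbour CG17260, whose start is 8 bp from that of SerRS. IleRS, which charges isoleucine (3L, 22288665 to 22292810), had 250.6 in the pooled list at rank 750. It scored 124.9 in replicate 1 (rank 866) and 122.7 in replicate 2 (rank 725). ThrRS, for threonine (2L, 12103751 to 12107170), had 247.3 at rank 771, with 132.7 in replicate 1 (rank 776) and 123 in replicate 2 (rank 721). These 3 genes kept ranks under 1000 in all lists.

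GluProRS is a fused enzyme that charges both glutamate and proline and joins a class I to a class II domain. Its gene (3R, 23952136 to 23958391) had a pooled signalValue of 201.3 at rank 1121, with 103.5 in replicate 1 (rank 1274) and 95.0 in replicate 2 (rank 1145). MetRS charges methionine, on both initiator and elongator tRNAs. Its gene (2R, 18846858 to 18850599) had 2 thresholded summits, with signalValues of 157.2 and 120.6. The stronger ranked 1781 in the pooled list, and scored 93.9 in replicate 1 (rank 1534) and 63.5 in replicate 2 (rank 2425). With SerRS, IleRS and ThrRS, these were the 5 genes without -m that ranked within the 3672 strongest peaks of both replicates.

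The other 5 thresholded genes without -m passed that limit in 1 replicate each. Phenylalanyl-tRNA synthetase is built of alpha and beta subunits, and both genes had a thresholded peak. alpha-PheRS (X, 8143904 to 8145602), which holds the catalytic site, had a pooled signalValue of 126 at rank 2703, with 73.2 in replicate 1 (rank 2567) and 48.9 in replicate 2 (rank 3899). beta-PheRS (3R, 24250460 to 24252679) had 120.3 at rank 2958, with 55.4 in replicate 1 (rank 4470) and 62.8 in replicate 2 (rank 2473). The replicates thus placed the subunit genes in opposite order.

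AsnRS, for asparagine (2L, 19129469 to 19131954), had 124.6 at rank 2768, with 49.0 in replicate 1 (rank 5627) and 73.3 in replicate 2 (rank 1850). GlnRS, for glutamine (3R, 25263267 to 25265721), had 116.1 at rank 3157, with 68.1 in replicate 1 (rank 2966) and 47.5 in replicate 2 (rank 4081). AspRS, for aspartate (2R, 12877004 to 12883168), had 114.7 at rank 3224, with 76.2 in replicate 1 (rank 2373) and 32.1 in replicate 2 (rank 7769). The replicates thus placed all 5 genes on opposite sides of rank 3672, with alpha-PheRS, GlnRS and AspRS stronger by rank in replicate 1. AsnRS and beta-PheRS were stronger by rank in replicate 2. The summits that the replicates gave at the 11 thresholded genes lay 1 to 132 bp apart, with a median of 24 bp.

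The peak counted for LeuRS-m, the mitochondrial leucyl-tRNA synthetase (3L, 4825853 to 4829038), was the strongest of any synthetase gene in the pooled list and stood in a neighbouring gene. It had a pooled signalValue of 346.4 at rank 384, with 135.7 in replicate 1 (rank 739) and 211.3 in replicate 2 (rank 250). Its summit lay 842 bp upstream of the LeuRS-m start and 676 bp inside Dhc64C, which encodes the heavy chain of cytoplasmic dynein. The starts of LeuRS-m and Dhc64C are 166 bp apart and point away from each other. A separate pooled peak lay 59 bp upstream of the LeuRS-m start, between both starts, with a signalValue of 37.2 at rank 20177. Replicate 2 placed a summit there too, 57 bp upstream with a signalValue of 35.5 at rank 6609, and replicate 1 had a single summit in range, 837 bp upstream. When each peak was given only to the gene with the nearest TSS, 9 of 20 genes without -m and 0 of 15 with -m kept a thresholded peak, against 15.2% of all protein-coding genes.

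The next 6 genes lay just below the thresholded list, 3 of each class, at pooled ranks from 3938 to 4295. Among those without -m, ValRS had a pooled signalValue of 102.6, TyrRS 101.9 and ArgRS 97.7. Among those with -m, CysRS-m had 102.9, ArgRS-m 101.9 and ProRS-m 99.6. The weakest thresholded peak at a synthetase gene, that of AspRS, had 114.7. Taking the 4590 strongest pooled peaks brought in all 6, giving 13 of 20 genes without -m (65%) and 4 of 15 with -m (26.7%), against 25.7% of all protein-coding genes. At the same limit replicate 1 gave 13 of 20 without -m and 1 of 15 with -m (6.67%), against 25.8% of all protein-coding genes. Replicate 2 gave 9 of 20 without -m (45%) and 4 of 15 with -m, against 25.2%. The share of genes with -m was thus near the background in the pooled list and in replicate 2 but below it in replicate 1, while that of genes without -m was above it in all 3.

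The remaining genes without -m had weaker peaks. In the pooled list GlyRS had 79.7, LysRS 73.4, LeuRS 71.0, AlaRS 70.3, HisRS 69.6 and CysRS 65.1, at ranks from 6053 to 8285. AlaRS had the widest gap in rank between the replicates among the genes without -m that had a summit in both, with a signalValue of 59.5 in replicate 1 (rank 3908) and 15.4 in replicate 2 (rank 24843). A stronger thresholded peak, of signalValue 140.5, lay 1083 bp upstream of AlaRS, just beyond the limit of 1000 bp. TrpRS had a summit in replicate 1 only, 646 bp downstream of its start, at rank 12440. Among the remaining genes with -m, PheRS-m had 82.4, AspRS-m 75.2, SerRS-m 43.0 and TrpRS-m 37.6 in the pooled list, at ranks from 5744 to 19816.

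Amino acids with a gene of either class were then compared within each amino acid. There were 15 of them, and 5 (glutamine, glycine, histidine, lysine and threonine) had no gene with -m. A thresholded summit stood at the gene without -m alone for 8 of the 15 amino acids, at the gene with -m alone for leucine, at both for none and at neither for 6. GluProRS counted for glutamate and for proline. For phenylalanine the higher-ranked of alpha-PheRS and beta-PheRS was used, whereas PheRS-m stood alone. By pooled rank the gene without -m was ahead for 11 amino acids and the gene with -m for 4. By replicate 1 rank the gene without -m was ahead for 13 and the gene with -m for 2, and by replicate 2 rank these numbers were 10 and 5. At leucine, LeuRS had a pooled rank of 7259, with a summit 5 bp from its start, against the rank of 384 at LeuRS-m. Of the 5 genes that have no -m counterpart, GlnRS and ThrRS had a thresholded summit. The symbols do not tell whether such a gene also makes the mitochondrial enzyme. Leaving those 5 out, 8 of 15 genes without -m had a thresholded summit. Over all protein-coding genes the share with a thresholded summit was 21.7%.

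Grouped by enzyme class, thresholded summits stood at 3 of 9 class I genes without -m (GlnRS, IleRS and MetRS) and at 6 of 10 class II genes without -m, against 21.7% of all protein-coding genes. With the fused GluProRS these make the 10. The class II genes were AsnRS, AspRS, SerRS, ThrRS and both PheRS subunits. In each replicate's strongest 3672 peaks, 4 of the 10 class II genes without -m had a summit, and 3 of the 9 class I genes in replicate 1 and 2 in replicate 2, against 22.0% of all protein-coding genes in replicate 1 and 21.2% in replicate 2. Of the 8 genes for the enzymes known from the multi-synthetase complex, 5 had a thresholded summit (AspRS, GlnRS, GluProRS, IleRS and MetRS) and 3 had none (ArgRS, LeuRS and LysRS). Of the 12 other genes without -m, 5 had one. By the strongest peaks of each replicate, the complex had 5 of 8 in replicate 1 and 3 of 8 in replicate 2, and the other genes without -m had 3 of 12 in replicate 1 and 4 of 12 in replicate 2. These groupings were made after the values were seen. Genes with a thresholded peak stood in both enzyme classes, inside and outside the complex. Among genes with -m, 1 of 9 class I genes and 0 of 6 class II genes had a thresholded summit.

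The synthetase genes without -m often share a promoter region with another gene. A head-to-head neighbour is here a protein-coding gene on the opposite strand whose TSS lies 0 to 1000 bp upstream, so that transcription of both genes runs apart. Such a neighbour was annotated for 17 of 20 genes without -m (85%) and for 7 of 15 with -m (46.7%), against 36.2% of all protein-coding genes. Over the whole annotation, a thresholded summit stood at 37.8% of genes with such a neighbour and at 12.6% of genes without. Among the head-to-head synthetase genes, 9 of 17 without -m (52.9%) and 1 of 7 with -m (14.3%) had a thresholded summit. Among those without such a neighbour, 1 of 3 genes without -m, beta-PheRS, and 0 of 8 genes with -m had a summit. Promoter arrangement therefore differed between the classes along with the peaks, and its part in the counts was not tested. Among head-to-head genes the share was higher without -m, on 17 and 7 genes. The 1 gene with -m was LeuRS-m, whose summit lay inside its neighbour Dhc64C.

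**Figure D3:**
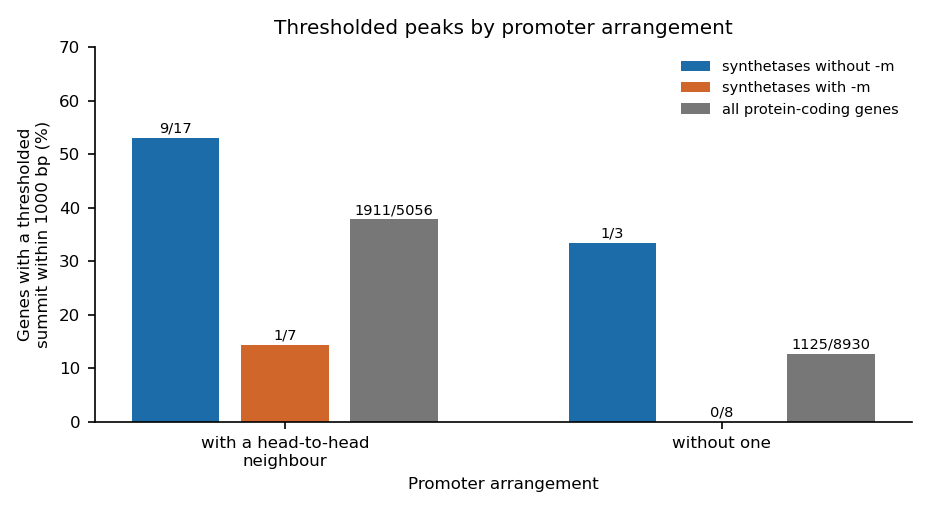
Percentage of genes that have a thresholded peak in range, split by whether the gene has a head-to-head protein-coding neighbour, with the number of genes above each bar. With a neighbour the shares are 52.9% for synthetase genes without -m, 14.3% for those with -m and 37.8% for all protein-coding genes.

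At 7 of the 10 thresholded genes without -m (70%) the summit lay between the starts of the head-to-head pair, against 39.1% of all protein-coding genes with a thresholded summit. Only a gene with a head-to-head neighbour can have such a summit. Among genes with both a neighbour and a thresholded summit, the counts were 7 of 9 without -m and 1187 of 1911 over all protein-coding genes. The IleRS summit lay 161 bp upstream of IleRS and 309 bp upstream of Hem, a component of the actin-regulating WAVE complex. The ThrRS summit lay 177 bp upstream of ThrRS and 289 bp upstream of Patsas. The GluProRS summit lay 96 bp upstream of GluProRS and 164 bp upstream of AP-1sigma, a subunit of the AP-1 clathrin adaptor. All 3 summits lay nearer to the synthetase start than to that of the neighbour.

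The same order held at MetRS (44 bp, and 201 bp from CG15084), alpha-PheRS (39 bp, and 198 bp from CG2129), AsnRS (51 bp, and 318 bp from DCTN6-p27) and GlnRS (55 bp, and 68 bp from RIOK2). The weaker MetRS summit lay 247 bp upstream of MetRS and 2 bp from the CG15084 start. At AspRS the summit lay 82 bp upstream of a start inside the gene and 28 bp inside Nmda1, whose start was nearer. With only the outermost start of each gene, AspRS lost its peak. The 9 other thresholded genes without -m had their own TSS nearest to the summit. A peak between paired starts can belong to either gene or to both, and these lists cannot tell them apart.

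**Figure D4:**
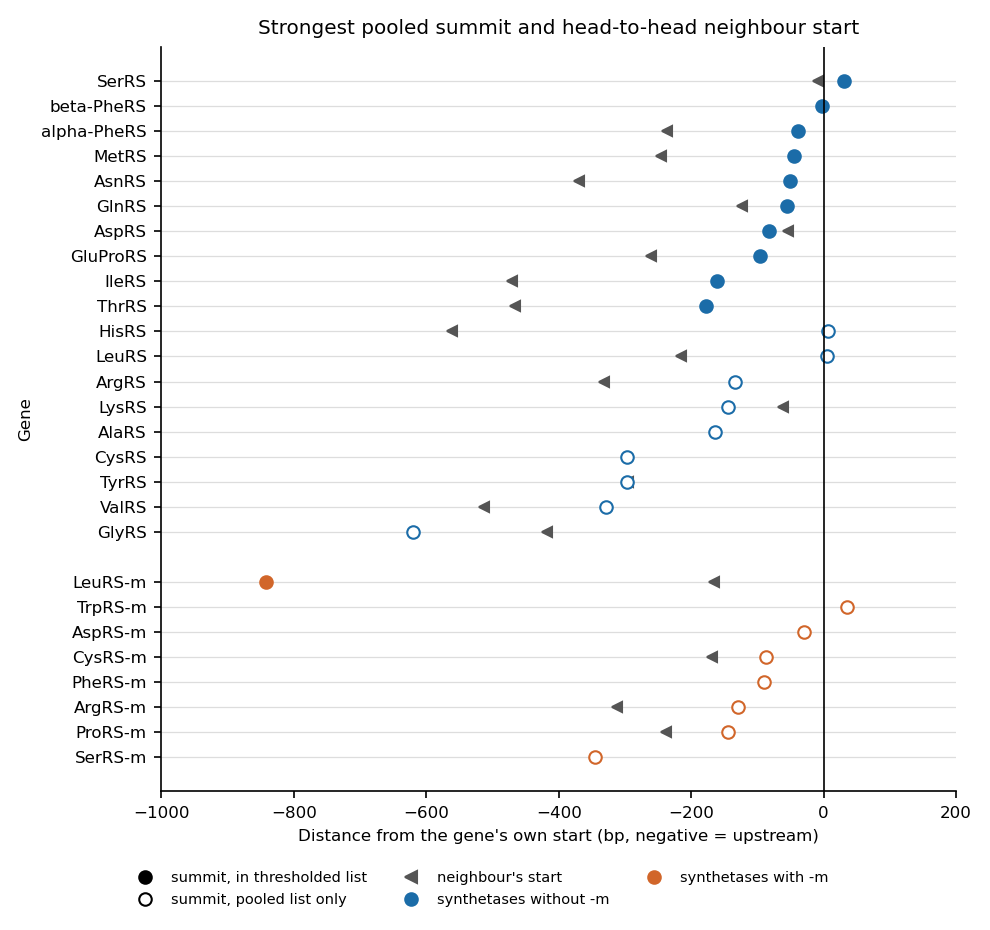
Position of the strongest pooled summit (circles, filled where the peak is in the thresholded list) relative to the start of each synthetase gene, with the start of the head-to-head neighbour as a grey triangle. The 10 filled circles of genes without -m lie between 177 bp upstream and 31 bp downstream, and that of LeuRS-m lies 842 bp upstream, beyond the start of Dhc64C.

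Summits at genes without -m sat close to the start. All 10 thresholded summits lay within 200 bp of a TSS of the gene, against 60.4% over all protein-coding genes with a thresholded summit. Of the 10, 9 (90%) lay upstream, with a median of 53 bp upstream, against 77% and a median of 128 bp upstream over all protein-coding genes. The medians were closer to each other over the pooled list, at 96 bp upstream without -m and 106 bp upstream for all protein-coding genes. In the pooled list 15 of 19 genes without -m (78.9%) and 6 of 8 with -m (75%) had the summit within 200 bp, against 54.6% of all protein-coding genes with a pooled summit. Where genes with -m had a pooled peak, it was thus about as close to the start as at genes without -m. At GlyRS the strongest pooled summit lay 620 bp upstream, nearer to the starts of sstn and Plp, and at LysRS it lay 145 bp upstream and 83 bp inside Hecw. At HisRS it was as near to the start of Bx, 7 bp, as to that of HisRS. At TyrRS it lay 297 bp upstream and 2 bp from the start of CG33158. GluRS-m lies directly behind TyrRS on the same strand, and its nearest pooled summit, 2422 bp away, was the TyrRS peak.

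The DNA under the member peaks was AT-rich, as at other promoters with thresholded peaks. Within 50 bp of the 11 thresholded summits GC content was 33.3% ± 8.62 (SD, n = 11 summits), against 34.3% ± 10.3 over the 2074 thresholded summits that served protein-coding genes. CGATA occurred on either strand within 50 bp of 5 of the 11 summits (45.5%), against 19.9% of those 2074. Those were alpha-PheRS, beta-PheRS, GlnRS, GluProRS and MetRS. Within 100 bp it occurred at 9 of 11 (81.8%), against 36.4%. Over all 27 pooled member summits the contrast was smaller at 50 bp, with CGATA at 7 (25.9%) against 20.1% of the 6705 pooled summits that served protein-coding genes. TATAAA was present at 3 of 11 (27.3%) against 24.0%, and TTTAAAA at 2 of 11 (18.2%) against 14.7%. GAGAG, the DRE and the E-box were not found within 50 bp of any of the 11, against 10.2%, 3.18% and 0.916% of the 2074 summits. The core of Motif 1 was present at 1 of 11 (9.09%) against 2.22%, and CTTTTC at 2 of 11 against 9.55%. These counts rest on 11 windows, and a match describes letters, not a bound site.

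The whole promoters were searched as well. In the 250 bases before and 50 after the start, CGATA was present in 15 of 20 genes without -m (75%) and 8 of 15 with -m (53.3%), against 47.5% of all protein-coding genes and 59.4% of those with a head-to-head neighbour. The DRE was present in 4 of 20 genes without -m and 1 of 15 with -m, against 9.37% of all protein-coding genes and 15.8% of those with a head-to-head neighbour. GC content of these promoters was 36.7% ± 5.92 in genes without -m (SD, n = 20), 35.5% ± 7.64 in genes with -m (SD, n = 15) and 39.1% ± 7.73 over all protein-coding genes (SD, 13945 promoters).

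Other genes that act around the synthetases were read in the same way. AIMP1, AIMP2 and AIMP3, scaffolds of the multi-synthetase complex, and Slimp, a paralog of mitochondrial seryl-tRNA synthetase, had no thresholded summit in range (0 of 4). The share over all protein-coding genes was 21.7%, so a set this small can easily have none. AIMP3 had a pooled peak of signalValue 64.7 at rank 8400, 18 bp upstream of its start. Mitochondria make glutaminyl-tRNA by converting glutamyl-tRNA with the amidotransferase of GatA, GatB and GatC. GatA had a thresholded peak of 169.4, 126 bp upstream, with 99.7 in replicate 1 and 67.6 in replicate 2. GatC had 186.5, 97 bp upstream, with 87.9 in replicate 1 and 91.7 in replicate 2, and GatB had none. All 3 of these genes have a head-to-head neighbour, and 37.8% of all protein-coding genes with such a neighbour had a thresholded summit.

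Charged tRNAs are used in translation elongation. Genes for elongation factors and their exchange factors were read next, together with mRRF1, which encodes a ribosome recycling factor. Of 11 such genes, 3 had a thresholded summit (27.3%), near the 21.7% of all protein-coding genes. They were eEF1alpha1, which carries aminoacyl-tRNA to the ribosome (210.7), eEF1gamma, part of its exchange factor (289.4), and eEF2, the translocase (203.2). These were 3 of the 6 cytosolic factors, and eEF1alpha2, eEF1beta and eEF1delta had none. The 5 mitochondrial factors examined, mEFTu1, mEFTu2, mEFTs, mEFG1 and mRRF1, had none either.

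Ribosomal protein genes come in cytosolic and mitochondrial sets as well. A thresholded summit lay within range of 71 of 86 cytosolic ribosomal protein genes (82.6%) and of 24 of 73 mitochondrial ones (32.9%), against the 21.7% of all protein-coding genes. In replicate 1 the shares were 82.6% and 32.9%, and in replicate 2 they were 80.2% for the cytosolic and 31.5% for the mitochondrial genes. For the synthetase genes the shares were 50% without -m, a class that may include enzymes serving both compartments, and 6.67% with -m. A head-to-head neighbour was annotated for 61.6% of the cytosolic and 79.5% of the mitochondrial ribosomal protein genes. Over all protein-coding genes, a thresholded summit stood at 37.8% of those with such a neighbour and at 12.6% of those without. The 32.9% of the mitochondrial set covers genes with and without such a neighbour. It lay between these shares and cannot be set against either alone. Among the synthetase genes the class with fewer peaks had fewer head-to-head neighbours, and among the ribosomal protein genes it had more. The part of promoter arrangement in these shares was not tested.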

How the data were processed

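CG12299-GFP binding was measured by ChIP-seq in 2 biological replicates of whole embryos. Per the labels, chromatin was sheared by sonication to 200 to 800 bp, the antibody recognised GFP (the labels' antibody field names CG12299) and the build was dm6. No aligner or peak caller is named in the labels or manifests. Per the deposited manifests, each replicate and both together were called against 1 control alignment, not analysed here, and the thresholded list passed the authors' irreproducible discovery rate. The authors' signalValue is a score of unstated scale, used to rank peaks within a list. The deposited −log10 q-value column served only for describing the lists, and the p-value column holds -1. The lists without a threshold hold 30000 rows each, and 1 repeated position in the pooled list and 1 in replicate 2 were counted once. Depth is unknown, since no reads or counts were used.

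Genes and TSSs came from Ensembl release 115, transposable elements left out, and sequences from the RefSeq release 6 assembly, whose arms contain all peak ends. Of the summits in range of a gene the one of highest signalValue was used. Analyses ran in Python 3.11.15 with numpy 2.4.6 and pandas 2.3.3, and plots in matplotlib 3.10.9; the counting was checked on simulated data. The members and lists were chosen with earlier results of these data known. All members are named, with genes whose TSS shares a thresholded member peak and list genes with a thresholded summit; others were chosen after their values were seen. No test was made, since the design holds 1 group and genes are not replicates. Alternatives covered distance, starts, peak strength, gene assignment, overlap and each replicate alone.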

Additional observations from a re-analysis of the deposited data

How the results depend on the processing

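Counts of genes with a thresholded peak (11 of 35, 10 of 20 without -m and 1 of 15 with -m) moved by more than 1.5 times with peak strength and, for -m, with distance. The strongest 1836 peaks gave 6 genes in all, 5 of them without -m, against 12% of all protein-coding genes. The whole pooled list gave 27 in all, 19 without -m and 8 with -m. Counting 4590 pooled peaks, a limit chosen after seeing the data, gave 17 in all and 4 with -m (1 with -m in replicate 1 alone, 4 in replicate 2 alone). Limits of 250 bp or 500 bp, or giving each peak only to the nearest TSS, left 0 with -m, where all protein-coding genes had 16%, 19.1% and 15.2%. Without either replicate the counts ran from 8 to 9 in all and from 7 to 8 without -m, and stayed at 1 with -m. The genes without -m exceeded those with -m in share, and all protein-coding genes, under each of these. With 2000 bp, the outermost start, any overlapping base or head-to-head genes only, the 3 counts stayed within 1.5 times. CGATA within 25 bp of the 27 pooled member summits was at 4, against 7 within 50 bp and 16 within 100 bp; the shares were 14.8%, 25.9% and 59.3%, against 11%, 20.1% and 34.6% of all pooled summits of protein-coding genes. No paired analysis was possible because the design holds 1 group. Unknown depth means that a gene without a summit is not shown to be unbound.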
